A study of Mus musculus with 4 samples.

Results

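Mkx, Zfpm2, Rerg, Crispld1, Mgat4c, Cemip2 and Chst9 are 7 of the 55422 gene IDs counted in nuclei of the mouse hippocampus. They were picked by their genotype difference in nuclei of the CA1 field, its subtypes included, and because that difference was not the same in the other classes of nuclei. Their values are therefore given as a description, with no test. All 7 passed the filter on low counts in CA1, where 16310 genes were tested.

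The study measured nuclear RNA of single nuclei with the 10x Genomics Chromium kit in 4 libraries, 2 Control and 2 Kat6a-cKO. All mice carried Kat6a-f/f, an allele of Kat6a flanked by loxP sites, and the Kat6a-cKO mice also carried NEX-cre. In NEX-cre mice the Neurod6 locus drives the Cre recombinase in forebrain excitatory neurons, so inhibitory neurons and glia of the Kat6a-cKO hippocampus are not its target. The labels name no treatment, and age and the number of animals per library are not given in the sources used here. The p-values therefore measure the spread between these libraries.

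KAT6A is a histone acetyltransferase, an enzyme that adds acetyl groups to histones at active genes. CA1 pyramidal neurons are the output neurons of the hippocampus proper, and they receive input from CA3, which receives input from the granule neurons of the dentate gyrus. The 7 genes belong to no common pathway. Mkx and Zfpm2 encode regulators of transcription, Rerg a small GTPase, Crispld1 a secreted protein, and Mgat4c, Chst9 and Cemip2 proteins that build, sulfate or cut sugar chains.

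The libraries held 171323466 to 186897245 counts (unique molecular identifiers, UMIs). Barcodes with at least 5000 UMIs numbered 7911 to 8442 per library, at a median of 13924 to 14666 UMIs, and 15 to 20 barcodes were shared by any pair of libraries. CA1 was made up of 1340 and 1596 nuclei in Control against 1215 and 1616 in Kat6a-cKO, with 20935766 to 28281472 counts per library. Its summed CA1 markers stood at 1041 to 1133 CPM (counts scaled to a common total per library and class, the usual CPM unit), with the groups overlapping, and 597 to 686 CPM of that sum was Man1a alone. Of the 7 markers 3 were lower in both Kat6a-cKO libraries, Wfs1, Fibcd1 and Pou3f1, as were 23.8% of all genes tested in CA1. Wfs1, a protein of the endoplasmic reticulum and a marker of dorsal CA1, stood furthest apart, with 35.7 and 42.5 CPM in Control against 16.1 and 25.7 CPM in Kat6a-cKO (−0.87 ± 0.18, edgeR adjusted p 0.149). Its part in the results was not tested. Kat6a itself had 62.9 and 68.3 CPM in Control CA1 against 60.7 and 63.9 CPM in Kat6a-cKO CA1, a log2 fold change of −0.05 (edgeR adjusted p 0.893). Counts over the whole gene cannot tell a transcript that lacks the deleted part from a complete one. The entry for the cre sequence had 0 counts in both Control libraries and 48 and 54 counts in the Kat6a-cKO libraries in CA1. In CPM these were 2.29 and 1.91, beside 2.21 and 2.96 in Kat6a-cKO CA3. Dentate granule nuclei of Kat6a-cKO had only 0.156 and 0.170 CPM of it, from 5 and 5 counts, and inhibitory neurons 0 and 0.201 CPM. The part of this difference between classes in the results was not tested.

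In CA1, 5 of the 7 genes were higher in both Kat6a-cKO libraries than in both Control libraries, and 2 were lower in both. For comparison, 14.7% of the 16310 tested genes were higher in both and 23.8% lower in both. By the edgeR threshold (adjusted p under 0.05), 0.141% of the genes were called in CA1, 0.0674% higher and 0.0736% lower. The choice of the 7 genes rests on this contrast, so nothing is read from these counts. The median log2 fold change of all tested genes was −0.00. Every log2 fold change below is Kat6a-cKO over Control, with its standard error (SE) from 2 libraries per group.

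**Figure D1:**
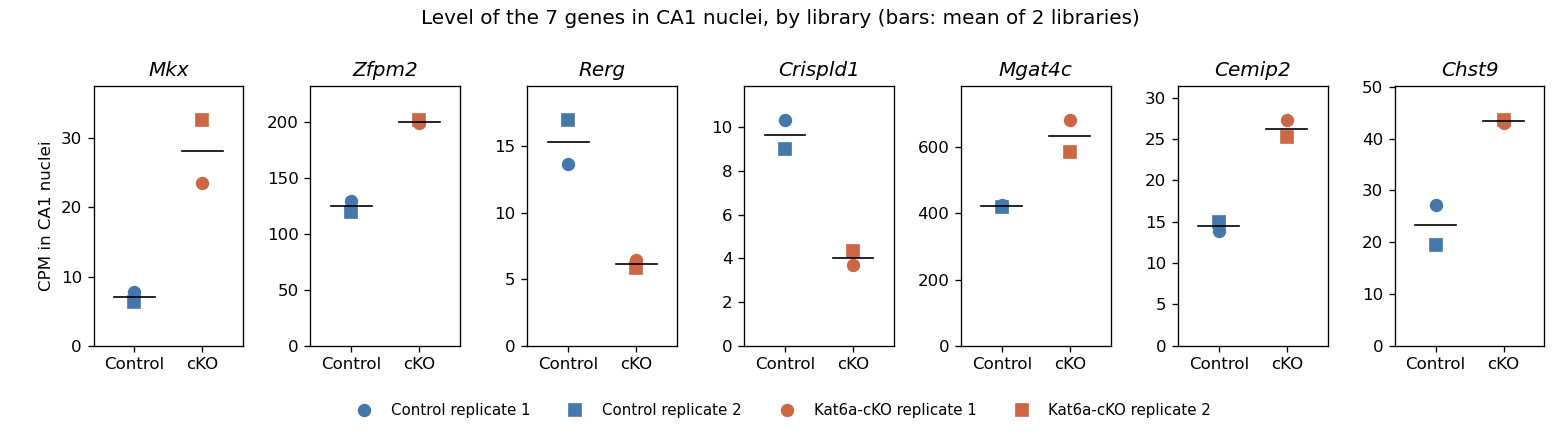
Level of each gene in CA1 nuclei (vertical axes, CPM, each from 0) in the 2 Control and 2 Kat6a-cKO libraries (points), with the mean of each group (bars). Mkx, Zfpm2, Mgat4c, Cemip2 and Chst9 lie higher in both Kat6a-cKO libraries, and Rerg and Crispld1 lie lower.

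Mkx (ENSMUSG00000061013.6) encodes Mohawk, a homeobox transcription factor known from tendon development. It lies on chromosome 18 at 6934518 to 7004780, on the minus strand (GENCODE M21, GRCm38, as for all positions here). In CA1 it had 7.70 and 6.37 CPM in Control against 23.6 and 32.6 CPM in Kat6a-cKO, from 177 to 923 counts per library. Both Kat6a-cKO libraries were high, and the log2 fold change was 2.03 ± 0.17. AC148004.2, which overlaps the end of Mkx on the same strand, had 0.118 and 0.396 CPM in Control against 0.764 and 1.41 CPM in Kat6a-cKO.

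Mkx was far more abundant in several other classes. In Control it stood at 368 and 320 CPM in dentate granule nuclei and at 234 and 265 CPM in inhibitory neurons, the 2 highest of 11 classes. In Kat6a-cKO these classes had 319 and 340 CPM and 240 and 247 CPM, with log2 fold changes of −0.05 ± 0.08 and −0.02 ± 0.07, so the groups overlapped in both. CA1 had the lowest Control mean but 1 among the 11 classes, with libraries that overlapped those of CA3 and of mossy neurons, its neighbours in the order. In Kat6a-cKO the mean of CA1, 28.1 CPM, was number 6 of the 11. In mossy neurons of the dentate hilus, which came to 30 to 51 nuclei per library, Mkx had 2.10 and 7.27 CPM in Control against 19.2 and 13.9 CPM in Kat6a-cKO. These values rest on few counts. Without thinning, 6.67% and 5.88% of those nuclei had a UMI of Mkx in Control, against 12% and 9.80% in Kat6a-cKO.

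Zfpm2 (ENSMUSG00000022306.9, chromosome 15 at 40655035 to 41104592, plus strand) encodes a zinc finger cofactor of GATA transcription factors. The CA1 libraries had 129 and 120 CPM in Control against 199 and 202 CPM in Kat6a-cKO. The log2 fold change was 0.71 ± 0.08, and the libraries of each group lay close together. CA1 had the lowest level of Zfpm2 among the 11 classes in both groups, and CA2, the small field between CA1 and CA3, had the next lowest. CA2 had 212 and 177 CPM in Control against 310 and 303 CPM in Kat6a-cKO, a log2 fold change of 0.67 ± 0.10. In CA3, with 788 and 773 CPM in Control against 738 and 768 CPM in Kat6a-cKO, the value was −0.04 ± 0.07. A cluster with no class name, led by Dcn and Rxfp1 and singled out after its values were seen, had 43.4 and 36.6 CPM of Zfpm2 in Control against 362 and 130 CPM in Kat6a-cKO. A finer clustering (Leiden resolution 2) gave 2 clusters with its leading genes. The Rxfp1, Tshz2 one held 54 and 18 nuclei in Control against 71 and 39 in Kat6a-cKO. The Dcn, Camk2d one held 37 and 35 nuclei in Control against 31 and 29 in Kat6a-cKO. The part of this mixture in the Zfpm2 values was not tested.

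Rerg (ENSMUSG00000030222.13, chromosome 6 at 137054825 to 137170497, minus strand) encodes a small GTPase of the Ras superfamily, known as a growth inhibitor regulated by estrogen. Its CA1 level was 13.7 and 16.9 CPM in Control against 6.45 and 5.80 CPM in Kat6a-cKO, a log2 fold change of −1.30 ± 0.15. Rerg was most abundant in CA3, at 234 and 237 CPM in Control against 234 and 222 CPM in Kat6a-cKO, where the groups overlapped. Mossy neurons had 214 and 218 CPM in Control against 135 and 142 CPM in Kat6a-cKO, a log2 fold change of −0.60 ± 0.13. CA2 went the other way, with 48.7 and 50.7 CPM in Control against 60.4 and 73.4 CPM in Kat6a-cKO.

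Crispld1 (ENSMUSG00000025776.13, chromosome 1 at 17727045 to 17766344, plus strand) encodes a secreted protein with a CAP domain, the fold shared with the cysteine-rich secretory proteins of the reproductive tract. Its level in CA1 was 10.3 and 9.0 CPM in Control against 3.68 and 4.35 CPM in Kat6a-cKO, from 77 to 263 counts per library. The log2 fold change was −1.24 ± 0.17. Crispld1 was highest in mossy neurons, with 120 and 133 CPM in Control against 58.4 and 99.5 CPM in Kat6a-cKO, and there too both Kat6a-cKO libraries were the lower ones. In CA3 the log2 fold change was −0.22 ± 0.14.

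Crispld1 shares its locus with antisense genes on the minus strand. Gm28153 (chromosome 1 at 17741915 to 17805417) overlaps it and had 13.4 and 14.3 CPM in Control CA1 against 5.45 and 7.39 CPM in Kat6a-cKO CA1, with a log2 fold change of −1.07 ± 0.16 (edgeR adjusted p 0.0520). Gm16070 (chromosome 1 at 17676027 to 17727646) overlaps the start of Crispld1 and had 6.40 and 7.09 CPM in Control against 3.58 and 4.10 CPM in Kat6a-cKO, with −0.78 ± 0.16 (edgeR adjusted p 0.162). The strand used in counting is not given in the sources used here, so reads from the stretches that these genes share cannot be told apart. Most of Gm16070 lies before the start of Crispld1, and Gm28153 runs on past its end.

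Mgat4c (ENSMUSG00000019888.16, chromosome 10 at 101681487 to 102391469, plus strand) encodes a member of the glycosyltransferase family that adds N-acetylglucosamine branches to the N-linked sugar chains of glycoproteins. The gene spans 710 kb and is longer than 99.3% of the genes tested in CA1, whose median length is 26.9 kb. The CA1 level was 426 and 420 CPM in Control against 682 and 585 CPM in Kat6a-cKO, and the log2 fold change was 0.61 ± 0.09. In dentate granule nuclei, the class with the least Mgat4c, it had 20.8 and 22.5 CPM in Control against 31.6 and 33.4 CPM in Kat6a-cKO. That is a log2 fold change of 0.60 ± 0.08, of the same size as in CA1 at a far lower level. In glia, which are not the Cre target, Mgat4c was higher in both Kat6a-cKO libraries in 2 of 4 classes, as were 17.8% of tested genes in oligodendrocytes and 14.4% in astrocytes. Oligodendrocytes had 419 and 279 CPM in Control against 542 and 504 CPM in Kat6a-cKO (0.60 ± 0.19), and astrocytes had 538 and 551 CPM against 761 and 789 CPM (0.58 ± 0.16). The groups overlapped in oligodendrocyte precursors (OPC), at 268 and 154 CPM against 591 and 110 CPM, and in microglia, at 913 and 479 CPM against 669 and 842 CPM. Free RNA, described further on, held Mgat4c at 453 and 448 CPM in Control and at 502 and 529 CPM in Kat6a-cKO. The Control values lay above both oligodendrocyte libraries of that group and far above both dentate granule libraries. The part of free RNA in the dentate granule value was not tested. In CA3, with 3330 and 2956 CPM in Control against 3008 and 2815 CPM in Kat6a-cKO, and in mossy neurons, with 3414 and 3455 CPM in Control against 3490 and 3307 CPM in Kat6a-cKO, the groups overlapped.

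RefSeq lists 4 starts for Mgat4c on GRCm38.p6. The promoters of the first, which is the 5′ end of the gene, and of an inner one are shown because Mgat4c is the gene of the 7 found in the promoter table and because they differ in their content of CG, the pair of letters at which mammalian DNA is methylated. Each line runs 5′ to 3′ on the plus strand, with CG in capitals, from 250 bases before the start to 50 after it. The first is chr10:101681237-101681536 and the inner one is chr10:102158829-102159128.
Mgat4c first start: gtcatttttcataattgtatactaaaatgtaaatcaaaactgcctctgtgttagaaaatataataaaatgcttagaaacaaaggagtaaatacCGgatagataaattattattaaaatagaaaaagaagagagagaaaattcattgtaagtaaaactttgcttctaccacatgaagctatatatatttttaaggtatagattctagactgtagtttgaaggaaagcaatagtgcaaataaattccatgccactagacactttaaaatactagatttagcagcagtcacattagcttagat
Mgat4c inner start: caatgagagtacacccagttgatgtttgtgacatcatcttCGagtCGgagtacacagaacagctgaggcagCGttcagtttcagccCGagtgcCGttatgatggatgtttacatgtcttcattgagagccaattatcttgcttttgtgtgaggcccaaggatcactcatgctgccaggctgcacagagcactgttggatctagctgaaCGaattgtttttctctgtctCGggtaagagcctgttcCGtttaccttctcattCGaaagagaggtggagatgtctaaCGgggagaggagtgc
CG, which reads the same on both strands, occurs 1 time in the first and 10 times in the inner one, against a median of 7 over the 32851 promoters of that length. The first holds 27.7% G or C and the inner one 48.3%. As many as 10 CG occur in 43.5% of those promoters, and no more than 1 in 14.1%. The counts are summed over the gene and do not say which start was used.

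Chst9 (ENSMUSG00000047161.12, chromosome 18 at 15451924 to 15760157, minus strand) encodes a sulfotransferase that adds sulfate to N-acetylgalactosamine at the end of sugar chains. In CA1 it had 27.1 and 19.4 CPM in Control against 43.1 and 43.6 CPM in Kat6a-cKO, a log2 fold change of 0.92 ± 0.15. It was also higher in both Kat6a-cKO libraries of CA3, with 109 and 98 CPM in Control against 153 and 141 CPM in Kat6a-cKO (0.51 ± 0.09). Dentate granule nuclei held the most Chst9, with 330 and 314 CPM in Control against 351 and 339 CPM in Kat6a-cKO, a log2 fold change of 0.11 ± 0.07.

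Cemip2 (ENSMUSG00000024754.13, chromosome 19 at 21778342 to 21858360, plus strand) encodes a membrane protein known to cut hyaluronan, a long sugar chain of the extracellular matrix. In CA1 it had 13.9 and 15 CPM in Control against 27.3 and 25.2 CPM in Kat6a-cKO, a log2 fold change of 0.88 ± 0.11. CA1 had the lowest level of Cemip2 among the 11 classes in both groups. The value was positive in every one of those classes, from 0.07 ± 0.18 in CA2 to the 0.88 of CA1.

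**Figure D2:**
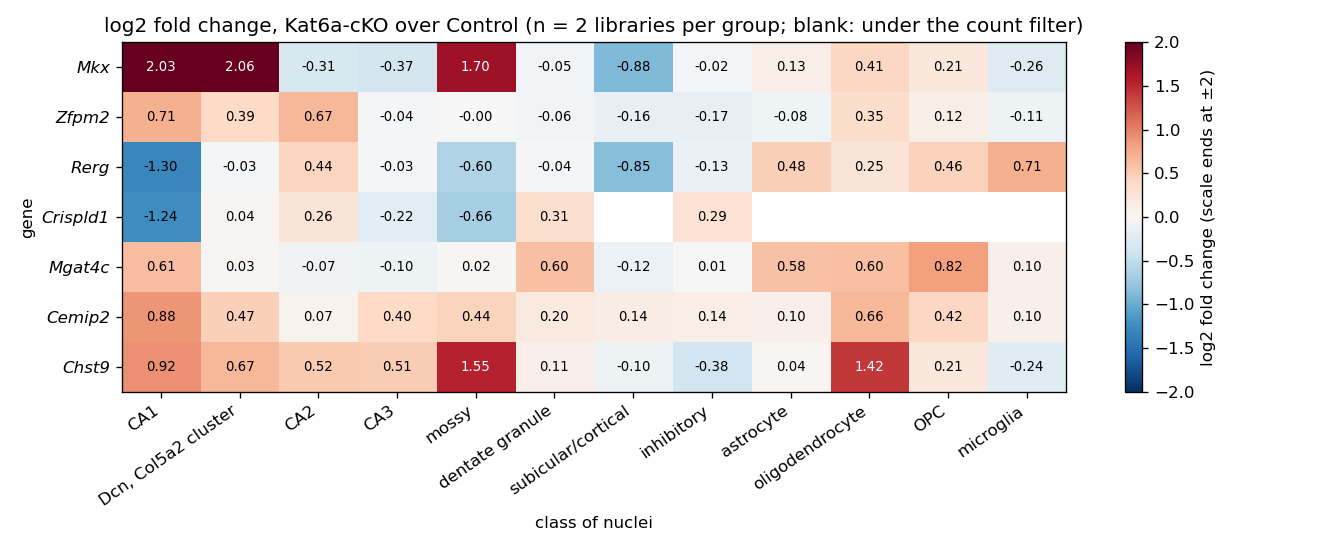
Log2 fold change (Kat6a-cKO over Control, n = 2 libraries per group) of each gene (rows) in CA1, in the cluster with Dcn and Col5a2 and in 10 other classes (columns), with the value in each cell and blanks where too few counts were present. Mkx stands at 2.03 in CA1 and at −0.05 in dentate granule nuclei, while Mgat4c stands near 0.6 in both. In dentate granule nuclei the level of Mgat4c is far under that in free RNA.

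Counted over the 7 genes, groups that did not overlap were found in each excitatory class counted here. In CA2, 2 genes were higher in both Kat6a-cKO libraries (Zfpm2 and Rerg) and 1 was lower (Mkx), where 17.4% of tested genes were higher and 19.9% lower. In CA3, 2 were higher (Cemip2 and Chst9) and 2 lower (Zfpm2 and Crispld1), against 16.8% and 20.5%. In mossy neurons 3 were higher (Mkx, Cemip2 and Chst9) and 2 lower (Rerg and Crispld1), in the directions seen in CA1, against 16.1% and 22.8%. Chst9 had 4.19 and 2.64 CPM there in Control against a mean of 9.42 CPM in Kat6a-cKO. Mossy libraries held 954519 to 1513844 counts over all genes, so the orders of Chst9 and Mkx rest on few counts. In dentate granule nuclei 3 were higher (Mgat4c, Cemip2 and Chst9) and 0 lower, against 16.9% and 21.8%. The subicular or cortical excitatory class was not counted in this way. There the mean of Cemip2 was 39.1 CPM in Control and 42.4 CPM in Kat6a-cKO. For the other genes of the 7 the Kat6a-cKO mean was the lower one, Mkx included, with 11.4 CPM in Control and 5.98 CPM in Kat6a-cKO. The other classes entered the choice of the genes, so nothing further is read from these counts.

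The level in Control was set side by side between classes, with the library as a block. The Control libraries also entered the genotype difference that chose the genes, so these differences are a description with no test. By the edgeR threshold 49.3% of 15753 genes differed between CA1 and CA3, and 24.1% were lower in CA1, and nothing is read from these shares for the 7 genes. All 7 had a lower value in CA1 than in CA3. Rerg differed most, with a log2 difference (CA1 minus CA3) of −3.95 ± 0.06 (SE, n = 2 Control libraries), followed by Mgat4c with −2.90 ± 0.05, Zfpm2 with −2.65 ± 0.05, Chst9 with −2.17 ± 0.06, Crispld1 with −0.92 ± 0.11 and Cemip2 with −0.59 ± 0.09. Mkx had the smallest difference, −0.21 ± 0.14, and its libraries overlapped between the classes.

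Between CA1 and dentate granule nuclei of Control, 57% of 17146 genes differed by the same threshold, 28% higher and 29% lower in CA1. Mgat4c (4.40 ± 0.06) and Crispld1 (2.95 ± 0.15) were higher in CA1. Mkx (−5.50 ± 0.06), Chst9 (−3.69 ± 0.07), Zfpm2 (−3.32 ± 0.05), Rerg (−2.42 ± 0.08) and Cemip2 (−1.38 ± 0.07) were lower in CA1.

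**Figure D3:**
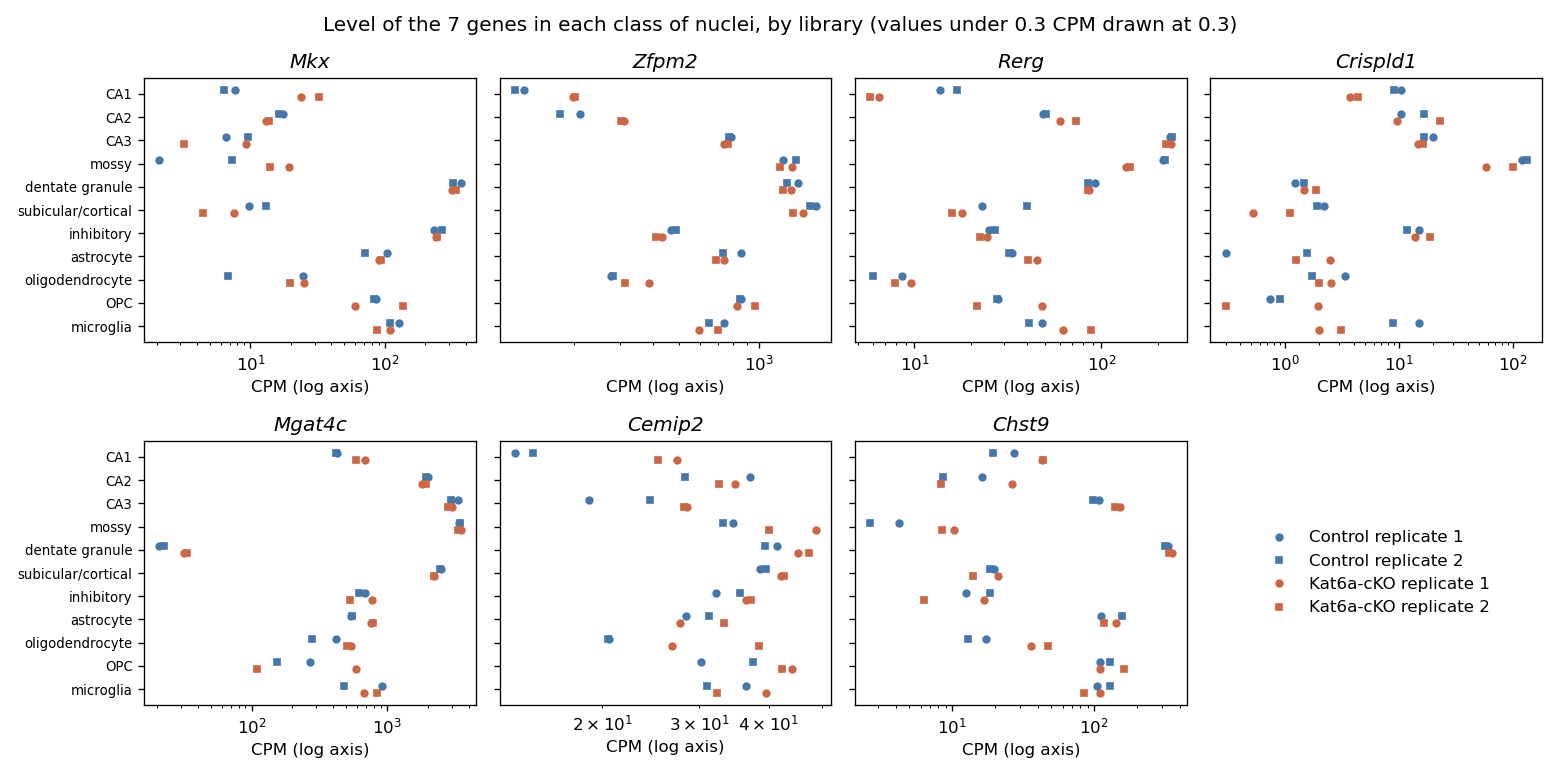
Level of each gene (horizontal log axes, CPM) in 11 classes of nuclei (rows) in the 2 Control libraries (blue) and 2 Kat6a-cKO libraries (orange), with values under 0.3 CPM drawn at 0.3. Mkx is highest in dentate granule nuclei and Rerg in CA3, and Zfpm2 and Cemip2 are lowest in CA1.

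The change of each gene was then set side by side between subtypes of CA1. The choice of the genes covered the subtypes of CA1, so their values here are a description with no test. CA1 nuclei fell into 8 subclusters, made without the 7 genes and named here by their 2 leading genes. No pair could be told dorsal from ventral by its markers, so the comparison took the pair with the most nuclei in their smallest library. These were the B230110G15Rik, Tenm3 subcluster (216 to 426 nuclei per library) and the Necab1, Ccbe1 subcluster (177 to 326). Over all genes the change of 0.253% of 12249, 31 in number, differed between them by the edgeR threshold, and nothing is read from this for the 7 genes. The number of nuclei per library overlapped between the groups in every subcluster but the Lrmp, Lct one. That one held 243 and 183 nuclei in Control against 101 and 151 in Kat6a-cKO. The Necab1, Ccbe1 subcluster held 259 and 326 against 177 and 262, and the B230110G15Rik, Tenm3 subcluster 216 and 321 against 266 and 426. These are numbers, while CA1 as a whole held 1340 and 1596 nuclei in Control against 1215 and 1616 in Kat6a-cKO. As a share of CA1, the B230110G15Rik, Tenm3 subcluster was higher in both Kat6a-cKO libraries. The Necab1, Ccbe1 and the Lrmp, Lct subclusters were lower in both, and the shares of the other subclusters overlapped. Both subclusters of the pair thus differed in share between the groups. A difference in make-up was not tested. The Control mean varied between subclusters by a ratio of 17.2 for Mkx and 7.69 for Rerg, and the part of this spread in the values of CA1 as a whole was not tested.

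Mgat4c had the largest difference of the 7 genes. In the B230110G15Rik, Tenm3 subcluster it had 114 and 106 CPM in Control against 390 and 375 CPM in Kat6a-cKO, a log2 fold change of 1.83 ± 0.10. In the Necab1, Ccbe1 subcluster it had 519 and 460 CPM in Control against 748 and 631 CPM in Kat6a-cKO, a log2 fold change of 0.52 ± 0.11. The difference of the changes was 1.31 ± 0.07. Over all 8 subclusters the Control mean of Mgat4c ran from 110 to 1336 CPM, a ratio of 12.1, and the Kat6a-cKO mean from 383 to 1301 CPM, a ratio of 3.40. The order of the log2 fold changes over the 8 subclusters was the reverse of the order of the Control means, from which the fold changes are themselves computed. The Spock1, Socs2 subcluster, with 1314 and 1358 CPM in Control against 1364 and 1238 CPM in Kat6a-cKO, had −0.02 ± 0.10. Spock1 is also a marker of CA3, and this subcluster had 72 and 98 nuclei in Control against 125 and 97 in Kat6a-cKO.

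For Rerg the difference was −0.73 ± 0.32, with 26.9 and 30.2 CPM in Control against 8.16 and 8.95 CPM in Kat6a-cKO in the first subcluster and 10.3 and 11.7 CPM against 6.56 and 4.79 CPM in the second. Mkx had −0.76 ± 0.54, at 1.37 to 5.65 CPM over the 4 libraries of the first subcluster. Crispld1 had 0.51 ± 0.39, Chst9 0.21 ± 0.24, Zfpm2 −0.05 ± 0.11 and Cemip2 −0.00 ± 0.27, and of these only the value of Crispld1 was larger than its standard error. Each of these values, that of Crispld1 included, turned sign when a certain library was left out, as given in the closing section.

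Clustering CA1 more finely gave another pair by the same rule, the Grm8, Sorcs1 fine subcluster (123 to 189 nuclei per library) and the C130073E24Rik, Gm45321 fine subcluster (117 to 174). Over all genes the change of 0.11% of 10888, 12 in number, differed between them. Mgat4c differed by −1.68 ± 0.12, with 690 and 685 CPM in Control against 879 and 854 CPM in Kat6a-cKO in the first and 112 and 71.6 CPM against 410 and 338 CPM in the second. Mkx differed by 4.24 ± 0.79. It had 5.20 and 4.69 CPM in Control against 34.9 and 61.5 CPM in Kat6a-cKO in the first, and in the second 3 and 8 counts against 2 and 3 counts, so the size of that difference rests on few counts.

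**Figure D4:**
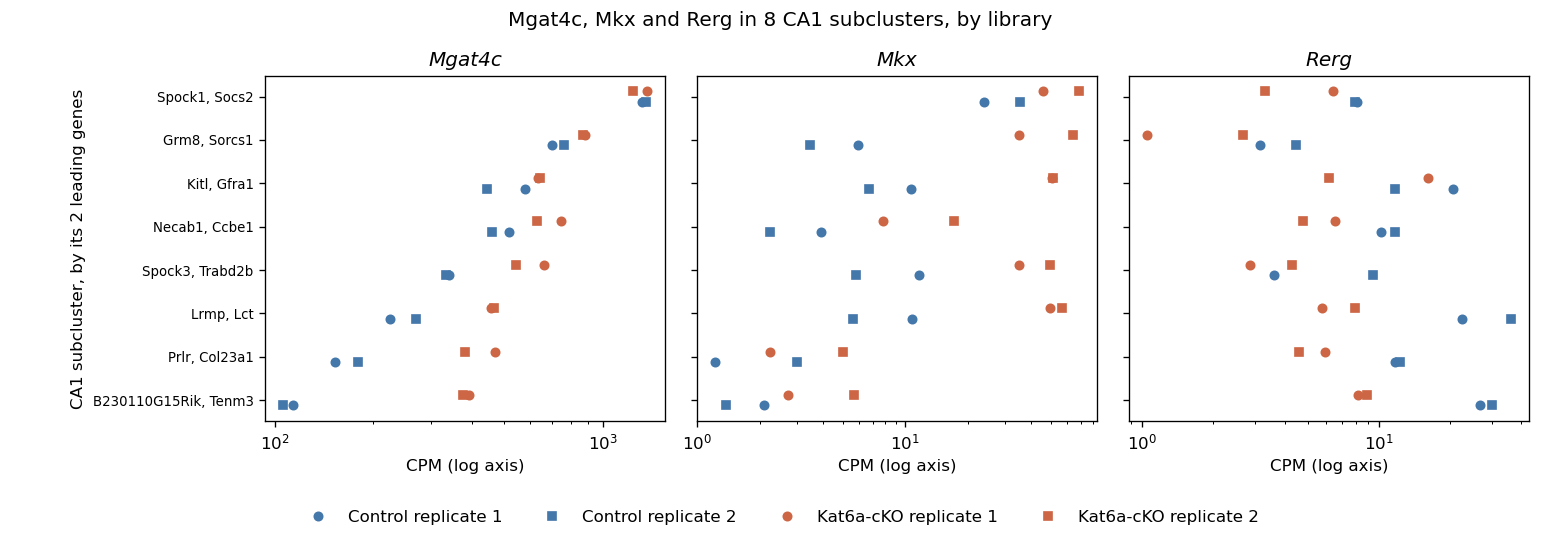
Level of Mgat4c, Mkx and Rerg (horizontal log axes, CPM) in 8 CA1 subclusters (rows, named by 2 leading genes and ordered by Mgat4c in Control) in the 2 Control (blue) and 2 Kat6a-cKO (orange) libraries. For Mgat4c the groups are far apart at the bottom, at 106 to 114 against 375 to 390 CPM, and overlap at the top.

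Across the 8 subclusters the direction of each gene was mostly shared. Cemip2 was higher in both Kat6a-cKO libraries in 8 of 8, and Mkx, Zfpm2, Mgat4c and Chst9 in 7 of 8. Crispld1 was lower in both in 7 of 8 and Rerg in 6 of 8. Over all tested pairs of a gene and a subcluster, 15.8% were higher in both and 20.7% lower in both. These counts follow from the choice on CA1 as a whole and support nothing beyond it. The size varied. Among the 7 subclusters with enough counts for a fit, Mkx ranged in log2 fold change from 0.93 ± 0.22 in the Spock1, Socs2 subcluster to 3.38 ± 0.30 in the Grm8, Sorcs1 subcluster, where it had 5.92 and 3.48 CPM in Control against 35.1 and 64.2 CPM in Kat6a-cKO. In the Prlr, Col23a1 subcluster, which was not fitted, Mkx had group means of 2.11 CPM in Control and 3.61 CPM in Kat6a-cKO from 3 to 13 counts per library, with the groups overlapping. Rerg, also fitted in 7, had its lowest value, −2.01 ± 0.29, in the Lrmp, Lct subcluster, with 22.4 and 36.1 CPM in Control against 5.76 and 7.92 CPM in Kat6a-cKO.

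A separate cluster with Dcn, Ndrg1 and Col5a2 among its leading genes raised 3 of 5 ventral CA1 markers and 3 of the 7 CA1 markers, too few for it to be named CA1. It held 254 to 394 nuclei per library. Here 4 of the 7 genes were higher in both Kat6a-cKO libraries and 0 lower, against 16.9% and 20.4% of tested genes. Mkx had 0.911 and 3.28 CPM in Control against 9.11 and 8.22 CPM in Kat6a-cKO (2.06 ± 0.38). Its Control values rest on few counts, since this cluster held 5487711 and 5484188 counts over all genes in the Control libraries. Chst9 had 98.9 and 97.4 CPM in Control against 178 and 130 CPM in Kat6a-cKO (0.67 ± 0.13). Rerg, with 8.20 and 10.4 CPM in Control against 10.7 and 6.98 CPM in Kat6a-cKO, and Mgat4c, with 893 and 835 CPM in Control against 901 and 852 CPM in Kat6a-cKO, overlapped between groups.

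The CA1 clusters with at least 3 raised dorsal markers were set against this cluster as an alternative chosen after seeing the data. The edge between this cluster and CA1 depended on the clustering. At Leiden resolution 2 a cluster of 798 nuclei led by Bmpr1b and Ndrg1, leading genes of this cluster too, was named CA1. A cluster of 521 nuclei led by Dcn and Col5a2 stayed unnamed there. The part of this edge in the differences below was not tested. The genes were chosen for their change in CA1, which the dorsal-type nuclei belong to, so these differences of log2 fold change (dorsal-type minus ventral-type) are a description with no test. They were −1.36 ± 0.24 for Rerg, −1.37 ± 0.33 for Crispld1, 0.66 ± 0.06 for Mgat4c, 0.34 ± 0.08 for Zfpm2, 0.47 ± 0.15 for Cemip2, 0.37 ± 0.14 for Chst9 and 0.18 ± 0.48 for Mkx. For Mkx the difference was smaller than its standard error. The log2 fold changes of Rerg and Crispld1 in the ventral-type cluster were −0.03 ± 0.25 and 0.04 ± 0.32. Within CA1, the Kitl, Gfra1 subcluster also raised 3 of the 5 ventral markers, against the other CA1 nuclei. There Crispld1 had 4.93 and 5.04 CPM in Control against 1.30 and 1.69 CPM in Kat6a-cKO, from 2 to 9 counts per library. Mgat4c had 581 and 445 CPM against 635 and 645 CPM, and Rerg, at 20.5 and 11.8 CPM against 16.2 and 6.19 CPM, overlapped.

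The share of CA1 nuclei with at least 1 UMI of a gene was compared after thinning each nucleus to 5000 UMIs, with exact 95% binomial intervals that cover counting error only. Mkx was seen in 2.54% (1.76 to 3.53) and 2.32% (1.64 to 3.18) of Control nuclei and in 8.31% (6.82 to 10.0) and 10.3% (8.83 to 11.9) of Kat6a-cKO nuclei. Without thinning the shares were 7.09% and 5.20% in Control against 16.2% and 19.4% in Kat6a-cKO. CA3 nuclei, at median depths of 23349 to 28414 UMIs against 16512 to 18258 in CA1, had 1.23% to 4.25% thinned, so the Control share of CA1 lay within that of a class with little Mkx. Mgat4c was seen in 58.9% and 56.0% of Control and 83.1% and 78.8% of Kat6a-cKO nuclei when thinned, and in 77.5% and 70.2% against 93.3% and 92.5% when not. Its share in dentate granule nuclei, the class with the least, was 8.83% to 12.7% thinned, at median depths of 10968 to 11919 UMIs. In oligodendrocytes it was 20% and 21.2% in Control against 35% and 38.6% in Kat6a-cKO, thinned, and in microglia 34.8% and 36.8% against 47.5% and 50.8%. The thinned shares overlapped in astrocytes, at 53.7% and 58.2% against 62.3% and 55%, and in OPC, at 24.9% and 23.9% against 39.3% and 13.5%.

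Rerg was seen in 6.72% and 7.46% of Control and 2.47% and 2.78% of Kat6a-cKO CA1 nuclei when thinned, and in 16.4% and 19.2% against 6.91% and 8.04% when not. The thinned share in oligodendrocytes, at median depths of 6455 to 7406 UMIs, was 1.77% to 3.57%, so that of Kat6a-cKO CA1 lay within the shares of a class with 5.99 to 9.57 CPM of Rerg, and no expression is read from the share alone. Over the 8 subclusters the Kat6a-cKO mean of Rerg ran from 1.85 to 11.2 CPM, a ratio of 6.03. Crispld1 was seen in 4.93% and 3.63% of Control and 1.48% and 2.48% of Kat6a-cKO CA1 nuclei when thinned (14.4% and 12.7% against 5.43% and 6.62% when not), above the 0.438% to 0.870% of dentate granule nuclei. The thinned shares of Zfpm2 were 36.7% and 32.6% in Control against 49.9% and 51.8% in Kat6a-cKO, those of Cemip2 6.42% and 7.39% against 11.4% and 10.4%, and those of Chst9 10.0% and 7.14% against 15.6% and 15%. Their unthinned shares were 65.3% and 57.1% against 74.1% and 74.9% for Zfpm2, 18.9% and 19.5% against 30.5% and 31.4% for Cemip2, and 22% and 15.5% against 30.8% and 32.9% for Chst9. No class held much less Zfpm2 or Cemip2 than CA1, and inhibitory neurons had 2.48% to 5.47% of nuclei with Chst9, thinned.

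**Figure D5:**
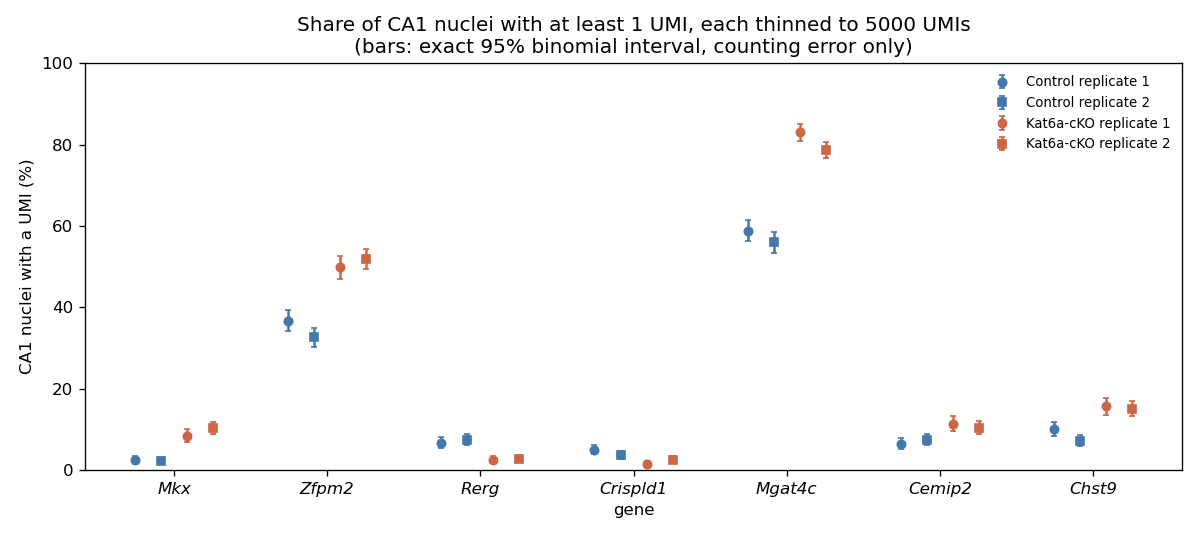
Share of CA1 nuclei (vertical axis, percent) with at least 1 UMI of each gene (horizontal axis) after thinning to 5000 UMIs, in the 2 Control (blue) and 2 Kat6a-cKO (orange) libraries, with exact 95% binomial intervals. The order of the groups is that of the CPM, from Mkx at 2.32% to 2.54% against 8.31% to 10.3% to Mgat4c at 56.0% to 58.9% against 78.8% to 83.1%.

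RNA from other cells was also measured. Barcodes of 10 to 100 UMIs, taken as free RNA, held Mkx at 49.3 to 74.4 CPM, so the Control level in CA1 was 11.4% of it. The Control level in CA1 was 35.6% of free RNA for Zfpm2, 47.0% for Rerg, 39.5% for Cemip2, 40.7% for Chst9, 93.9% for Mgat4c and 155% for Crispld1. Free RNA held Mgat4c at 453 and 448 CPM in Control against 502 and 529 CPM in Kat6a-cKO. It was also higher in both Kat6a-cKO libraries for Rerg, at 35.5 and 29.7 CPM against 38.1 and 37.0 CPM, from 44 to 61 counts per library. The same held for Chst9, at 57.0 and 57.4 CPM against 57.5 and 67.2 CPM, from 80 to 107 counts. For Crispld1 it was lower in both, from 4 to 11 counts per library, and for the other 3 genes the groups overlapped. No share over all genes in free RNA stands beside these orders, so nothing is read from them. The summed dentate granule markers in CA1 stood at 330 and 328 CPM in Control against 300 and 288 CPM in Kat6a-cKO, most of it Rfx3, and all 7 were above 0 in each library. The summed CA3 markers stood at 293 and 303 CPM in Control against 347 and 307 CPM in Kat6a-cKO, with 6 of 6 above 0. The summed microglia markers were at 110 and 140 CPM against 97.9 and 103 CPM, and those of oligodendrocytes at 82.4 and 77.0 CPM against 70.3 and 63.0 CPM. Those of choroid plexus or ependymal cells were at 27.3 and 35.7 CPM against 21.2 and 24.4 CPM, lower in both Kat6a-cKO libraries. The sums of OPC markers (2.99 to 4.20 CPM over the 4 libraries), mural or fibroblast markers (1.44 to 2.01 CPM), Cajal-Retzius markers (4.43 to 5.30 CPM) and mossy markers (57.8 to 63.4 CPM) were higher in both. The part of these other markers in the results was not tested. In CA1 nuclei with 0 UMIs of the 6 dentate markers other than Rfx3, an alternative chosen after seeing the data, Mkx had a log2 fold change of 2.13 ± 0.22, Zfpm2 0.78 ± 0.08 and Chst9 1.03 ± 0.19. Without the Spock1, Socs2 subcluster, also chosen after seeing the data, Rerg had −1.34 ± 0.15, Crispld1 −1.31 ± 0.19, Mgat4c 0.72 ± 0.09 and Cemip2 0.91 ± 0.11.

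Genes related to the 7 by family or pathway were read from 7 lists with 6 to 23 tested genes each. EdgeR called 0 of them in CA1, where it called 0.141% of all tested genes, a share at which lists of this length say nothing by a count of 0. Of 8 tested TALE homeobox genes, the superclass of Mkx, 3 had an unadjusted p under 0.05, as did 9.23% of all tested genes. The lowest was that of Pbx3, singled out after its values were seen, with 46.4 and 41.3 CPM in Control against 61.9 and 61.9 CPM in Kat6a-cKO (0.52 ± 0.09, edgeR adjusted p 0.0953). DESeq2 called Pbx3 (DESeq2 adjusted p 0.00421) and 0 other genes of the lists, beside 0.889% of all tested genes, so 1 call in the lists is not set apart from the background.

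Of 17 tested genes of Zfpm1 and the partners of these cofactors 1 had an unadjusted p under 0.05, and Chd4, a chromatin remodeller and the most abundant, had 105 and 119 CPM against 98.9 and 111 CPM. Of 23 Ras-like GTPases 1 did, and Rit2 had 210 and 198 CPM against 218 and 197 CPM. Of 6 CAP domain genes 0 did, and Glipr1 had 1.57 and 2.05 CPM against 1.58 and 2.19 CPM.

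Of 11 transferases of N-glycan branching 0 had an unadjusted p under 0.05, and Fut8, which adds the core fucose, had 282 and 303 CPM against 302 and 310 CPM. Of 12 carbohydrate sulfotransferases 0 did, and Ust, which sulfates uronic acids, had 381 and 380 CPM against 396 and 379 CPM. Of 15 genes of hyaluronan synthesis, binding and breakdown 4 did. Ncan, a hyaluronan-binding proteoglycan of the brain matrix and the most abundant of them, had 118 and 126 CPM against 93.3 and 110 CPM (−0.24 ± 0.08, edgeR adjusted p 0.419). The median log2 fold changes of the 7 lists ran from −0.16 for the CAP domain genes to 0.07 for the TALE homeobox genes, beside −0.00 for all tested genes.

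The genes whose Control level followed each of the 7 most closely over 33 clusters were found among 9832 genes by Pearson correlation of log2 of CPM + 1. The points share their libraries, so no p is given. Mkx was most like Tiam1 (r = 0.83) and Ptchd4 (0.78), Zfpm2 like Tle4 (0.85) and Diras2 (0.71), and Rerg like Tspan18 (0.81) and Nrp2 (0.79). Crispld1 was most like Gm28153 (0.95), the antisense gene that overlaps it, and Gm28154 (0.89). Mgat4c was most like Socs2 (0.89) and Gm47033 (0.83), Cemip2 like Wdfy1 (0.79) and Glrb (0.72), and Chst9 like Gm46123 (0.76) and Cyp7b1 (0.74). In CA1 these genes had log2 fold changes from −1.07 for Gm28153 to 0.50 for Tspan18, and none passed the edgeR threshold. Tiam1, for example, had 62.6 and 61.7 CPM in Control against 71.6 and 55.8 CPM in Kat6a-cKO. Among the 7 genes themselves the correlations of Control level ran from −0.52 between Mkx and Mgat4c to 0.50 between Zfpm2 and Rerg.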

How the data were processed

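The authors deposited whole-number counts of UMIs per gene and barcode for all barcodes, empty droplets included. Seurat 4.0.1 and mm10 are named in the submitters' processing notes; the aligner, the annotation and the counting strand are not given in the sources used here. Per the labels, replicates are separate samples of a genotype. Barcodes with at least 5000 UMIs were kept, doublets called by Scrublet (scanpy 1.11.5, rate 0.06, 243 to 298 per library) were left out, and nuclei were clustered by Leiden (leidenalg 0.10.2, resolution 1, 30 principal components, 15 neighbours) without 189 genes, among them the 7 genes, Kat6a and the lists of related genes. Clusters were named by the class of which the highest percent of markers was raised 2-fold, given at least 50% and at least 3 raised. A cluster stayed unnamed if a class of another lineage also met this rule or had more markers among its leading genes. The same held for clusters of under 20 nuclei or of low UMIs. Clusters of 207, 190 and 49 nuclei that raised 100% of oligodendrocyte markers were left out of that class for a second lineage. These thresholds were set with the data seen. CA1 subtypes are Leiden clusters of CA1 nuclei at resolution 0.5.

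Counts were summed per library and class and compared by the edgeR 4.0.16 quasi-likelihood test (R 4.3.3, TMM, filterByExpr, Benjamini-Hochberg adjusted p under 0.05 over all tested genes). Printed CPM are counts over the class total, without TMM. The SE is the absolute log2 fold change divided by the square root of F. Tested on simulated data for CA1, the fit called 146 of 196 genes given a log2 change of 1 and 6 others. The simulated spread of a gene was set by its level alone, and many more genes were changed than the 23 called in CA1. The share found there therefore does not give the share found in the real fit. DESeq2 1.42.0, other filters, depths and clusterings, subtraction of free RNA at 5% and leaving out each library were alternatives. The 7 genes and all lists were chosen with earlier results of these data known. The planned tests between CA1 subtypes and between classes in Control are given without p-values for the 7 genes, since their choice used the same sums. The named genes are these 7, from each list up to 4 called genes and the most abundant one, and for each of the 7 the 2 most correlated genes over clusters. Positions are from GENCODE M21, which all 7 matched by ID and version. RefSeq promoters were matched for 1 of the 7 genes, Mgat4c.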

Additional observations from a re-analysis of the deposited data

How the results depend on the processing

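The log2 fold changes of the 7 genes in CA1 kept their sign under each of 13 alternatives (12 for Crispld1, which was not tested at a mean of at least 10 CPM), with ranges of 1.79 to 2.68 for Mkx, 0.62 to 0.80 for Zfpm2, −1.67 to −1.17 for Rerg, −1.36 to −1.10 for Crispld1, 0.47 to 0.74 for Mgat4c, 0.81 to 0.98 for Cemip2 and 0.67 to 1.21 for Chst9. The genes were chosen on this contrast, in which their groups did not overlap. The kept signs follow from that choice and support nothing beyond it. The 23 calls in CA1 became 145 in DESeq2, 529 with no filter on low counts, 6 at a mean of at least 10 CPM, 3 after subtraction of free RNA, 14 at Leiden resolution 2 and 49 without the Spock1, Socs2 subcluster. Leaving out 1 library gave 112 (without Kat6a-cKO replicate 1) to 448 (without Control replicate 1), with 312 without Control replicate 2 and 418 when Kat6a-cKO replicate 2 was left out. The lone library of an arm is then assumed to vary like the other group. With the replicate number as a block CA1 had 79 calls, and the subtype test 43. No label states that libraries are paired by number, and same-numbered libraries correlated at 0.18 in their deviations in CA1 over 16310 genes with only 2 pairs, which does not decide whether the numbers pair them.

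The 31 genes whose change differed between CA1 subtypes became 11 in DESeq2, 48 with no filter, 55 at 10 CPM, 12 at Leiden resolution 1 and 59 for dorsal-type against ventral-type clusters, and 4 (without Kat6a-cKO replicate 2) to 48 (without Control replicate 2) when a library was left out, with 6 without Kat6a-cKO replicate 1. The difference of Mgat4c, given with no test, was 1.23 to 1.41 when 1 library was left out. At Leiden resolution 1 the pair is another one, with the Grm8, Sorcs1 subcluster first, and the differences reversed to 4.24 for Mkx, 0.11 for Zfpm2, 0.44 for Rerg and −1.68 for Mgat4c. For dorsal-type against ventral-type clusters they reversed to 0.18 for Mkx, 0.34 for Zfpm2, −1.37 for Crispld1 and 0.47 for Cemip2. Leaving out 1 library, Zfpm2 ranged from −0.17 to 0.089 (without Control replicate 2), Crispld1 from −0.060 (without Kat6a-cKO replicate 2) to 0.84 and Chst9 from −0.25 (without Kat6a-cKO replicate 2) to 0.57. Cemip2, near 0, reversed to 0.043 with no filter, 0.017 at 10 CPM and 0.0060 in nuclei of at least 10000 UMIs, and ranged from −0.44 to 0.36 when a library was left out (0.17 without Control replicate 1, and the highest when Kat6a-cKO replicate 1 was left out). Apart from the other pairs of clusters, the cause was not tested.

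The calls between CA1 and CA3 went from 7771 to 3863 in DESeq2, 4645 with no filter and 4766 at 10 CPM, and those between CA1 and dentate granule nuclei from 9765 to 5727 in DESeq2 and 5603 at 10 CPM. The difference of Mkx between CA1 and CA3 reversed to 1.19 with all 4 libraries, which include Kat6a-cKO CA1, and was −0.63 at Leiden resolution 2, against −0.21. Leaving out a library was not run there, since 1 library would leave no residual degrees of freedom. Crispld1 rests on 77 to 263 counts per library in CA1 and Rerg on 135 to 471, which limits the values within subtypes.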
